A study of Mus musculus with 5 samples.

Results

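The collagen genes were taken as every row whose symbol consists of COL, a type number, the letter A and a chain number, with no pseudogene in its description. They numbered 44 of the 50867 genes in the table: 11 fibrillar chains, 6 basement membrane chains of type IV and 27 others. Read counts were examined in 5 RNA libraries of Ba/F3 cells, an interleukin-3-dependent mouse pro-B line, all infected with lentivirus. The libraries, labelled S_PXT1_K118R, S_PXT1, WT_K118R, WT and PMSCV, are told apart in the labels by these names alone. PXT1 is a gene symbol, K118R is the usual notation for a lysine to arginine substitution and pMSCV is the usual name of a murine retroviral vector, whereas the labels do not spell out S and WT or say which protein carries the substitution. With 1 library a group there were no replicates, and no test between groups was made. Whether a library came from a clone or a pool of infected cells is not stated in the labels. The rows carry human gene identifiers and human positions although the labels give mouse cells, so a count is a read assigned to a human gene model.

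Collagens are secreted proteins built from α chains wound into a triple helix. Fibrillar collagens assemble into the cross-banded fibrils of connective tissue, where COL1A1 and COL1A2 encode the α1 and α2 chains of the type I heterotrimer and COL3A1 encodes the homotrimeric type III. Type IV forms the sheet of basement membranes, type VI forms beaded filaments, and the FACIT chains sit on fibril surfaces. The main sources are mesenchymal, endothelial and epithelial cells, and B-lineage cells are not a usual source of fibrillar collagen.

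Total counts lay between 250409 and 351693 per library, so that a count was worth 2.92 to 3.93 CPM, the library-size-scaled count after TMM normalisation (trimmed mean of M values). S_PXT1_K118R and S_PXT1 had counts for 7044 and 7393 genes, against 11504 in WT_K118R, 11712 in WT and 11492 in PMSCV. Defining genes of the labelled cell type were mostly uncounted: CD79A, CD79B, IGLL1, VPREB1 and IL3RA were at 0 in all 5 libraries, and PTPRC, the pan-leukocyte CD45, had at most 6 counts. SPI1, a transcription factor of blood cells, had 128, 139, 1, 173 and 113 counts in S_PXT1_K118R, S_PXT1, WT_K118R, WT and PMSCV, so WT_K118R stood apart from the others in this gene. Intervals below are exact 95% intervals and cover counting error only, because each group is 1 library. Reads that carry no molecular identifier do not stand for separate molecules, so the intervals may be too narrow even for counting error.

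Collagens were counted in all libraries, but S_PXT1_K118R and S_PXT1 had fewer of them. Counts for the 44 genes summed to 232 in S_PXT1_K118R, 217 in S_PXT1, 800 in WT_K118R, 527 in WT and 557 in PMSCV. Scaled for library size these sums were 912, 846, 2371, 1541 and 1981 CPM. At least 1 count was found for 10 collagens in S_PXT1_K118R, 11 in S_PXT1, 24 in WT_K118R, 23 in WT and 19 in PMSCV. At the depth of the smallest library the expected numbers were 10, 10.9, 22.8, 21.7 and 18.7, so the order was the same at equal depth. Of the 44 genes, 16 had no count in any library, which allows up to 3 counts per library, 15 had 1 to 19 counts in all and 13 had at least 20.

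**Figure D1:**
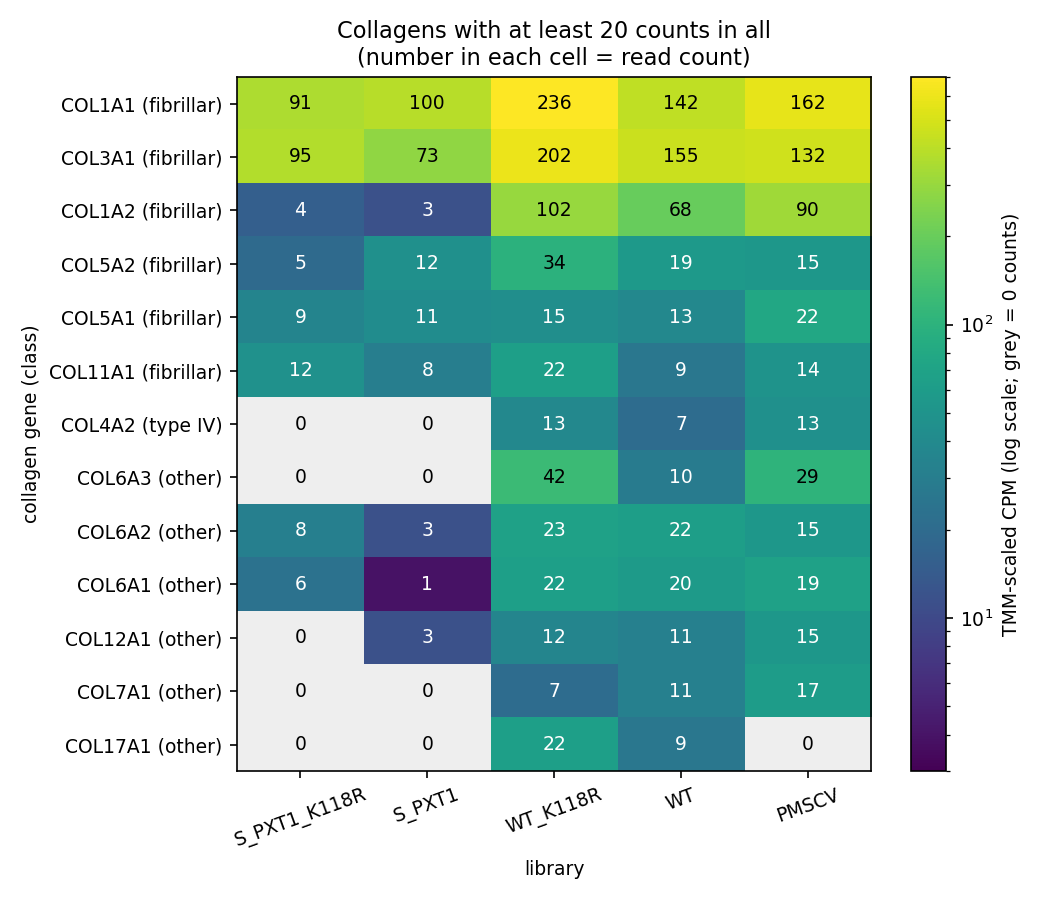
Read counts (numbers) and TMM-scaled CPM (colour, log scale, grey for 0 counts) of the 13 collagens with at least 20 counts over the 5 libraries, 1 row per gene with its class and 1 column per library. COL1A1 and COL3A1 lie between 73 and 236 counts in every library, whereas COL1A2 has 4 and 3 counts in S_PXT1_K118R and S_PXT1 and 68 to 102 in the other 3.

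The fibrillar chains supplied most of the counts. COL1A1 (ENSG00000108821, chromosome 17, 50183289 to 50201632, minus strand) had 91 counts in S_PXT1_K118R, 100 in S_PXT1, 236 in WT_K118R, 142 in WT and 162 in PMSCV. COL3A1 (ENSG00000168542, chromosome 2, 188974320 to 189012746, plus strand) had 95, 73, 202, 155 and 132 counts in the same order of libraries. WT_K118R was highest for both genes, and no library was near 0. Positions are copied from the table, and the sources used here name no genome build for it.

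COL1A2 (ENSG00000164692, chromosome 7, 94394561 to 94431232, plus strand) had 4 counts in S_PXT1_K118R and 3 in S_PXT1, against 102 in WT_K118R, 68 in WT and 90 in PMSCV. Its level was 15.7 CPM (4.28 to 40.3) in S_PXT1_K118R and 11.7 CPM (2.41 to 34.2) in S_PXT1. In WT_K118R it was 302 CPM (246 to 367), in WT 199 CPM (154 to 252) and in PMSCV 320.1 CPM (257 to 393). The intervals of the S_PXT1_K118R and S_PXT1 libraries overlapped each other and lay below those of the other 3 libraries.

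COL1A1 spanned a narrower range, with 358 CPM (288 to 439) in S_PXT1_K118R, 389.9 CPM (317 to 474) in S_PXT1, 699 CPM (613 to 795) in WT_K118R, 415 CPM (349.8 to 489) in WT and 576 CPM (491 to 672) in PMSCV. From low to high the order was S_PXT1_K118R, S_PXT1, WT, PMSCV and WT_K118R, and the intervals of neighbours overlapped except those of PMSCV and WT. COL3A1 was at 373 CPM (302 to 457) in S_PXT1_K118R, 285 CPM (223 to 358) in S_PXT1, 599 CPM (519 to 687) in WT_K118R, 453 CPM (385 to 531) in WT and 469 CPM (393 to 557) in PMSCV. S_PXT1 was lowest and WT_K118R highest for COL3A1, with overlapping intervals between all neighbours in the order.

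**Figure D2:**
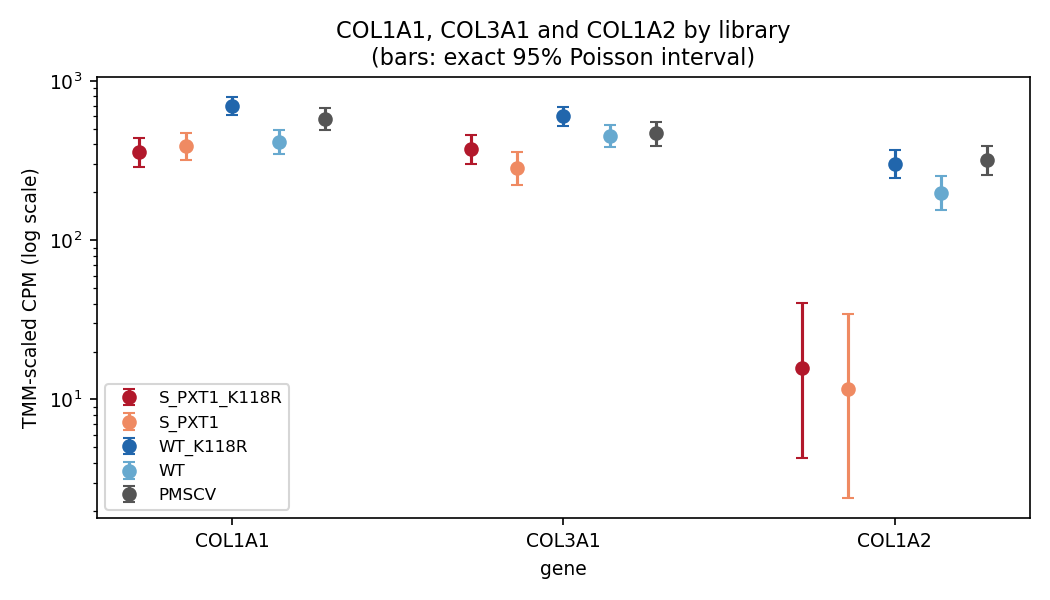
TMM-scaled CPM (log axis) of COL1A1, COL3A1 and COL1A2 in the 5 libraries (colours), points for the level and bars for the exact 95% Poisson interval of the count. For COL1A2 the S_PXT1_K118R and S_PXT1 points lie at 15.7 and 11.7 CPM, against 199 to 320.1 CPM in the other 3 libraries.

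Within a library the contrast needs no scaling. COL1A1 made up 95.8% (89.6 to 98.8) of the counts of COL1A1 and COL1A2 in S_PXT1_K118R and 97.1% (91.7 to 99.4) in S_PXT1. The share was 69.8% (64.6 to 74.7) in WT_K118R, 67.6% (60.8 to 73.9) in WT and 64.3% (58.0 to 70.2) in PMSCV. The intervals of the S_PXT1_K118R and S_PXT1 libraries overlapped none of the other 3. COL3A1 against COL1A2 gave 96.0% (90.0 to 98.9) in S_PXT1_K118R and 96.1% (88.9 to 99.2) in S_PXT1, against 66.4% (60.8 to 71.7) in WT_K118R, 69.5% (63.0 to 75.5) in WT and 59.5% (52.7 to 66.0) in PMSCV. COL3A1 against COL1A1 showed no such division: its share was 51.1% (43.7 to 58.5), 42.2% (34.7 to 49.9), 46.1% (41.4 to 50.9), 52.2% (46.3 to 58.0) and 44.9% (39.1 to 50.8) in S_PXT1_K118R, S_PXT1, WT_K118R, WT and PMSCV.

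Per length, in the deposited FPKM (counts divided by gene length and library size), COL1A1 was at 28.0 in S_PXT1_K118R, 29.7 in S_PXT1, 52.2 in WT_K118R, 31.1 in WT and 46.8 in PMSCV. COL1A2 was at 0.965, 0.70, 17.7, 11.7 and 20.4 FPKM in the same libraries. The ratio of the COL1A1 level to the COL1A2 level was thus 29.0 in S_PXT1_K118R and 42.5 in S_PXT1, against 2.95 in WT_K118R, 2.66 in WT and 2.29 in PMSCV. COL3A1 was at 40.5, 30.1, 62.0, 47.0 and 52.9 FPKM, above COL1A1 in each library, although in S_PXT1 the 2 levels differed by little (30.1 and 29.7 FPKM). These ratios between genes describe counts on human gene models and not levels in the labelled mouse cells. Whether the counted reads were of mouse or of human RNA was not tested.

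**Figure D3:**
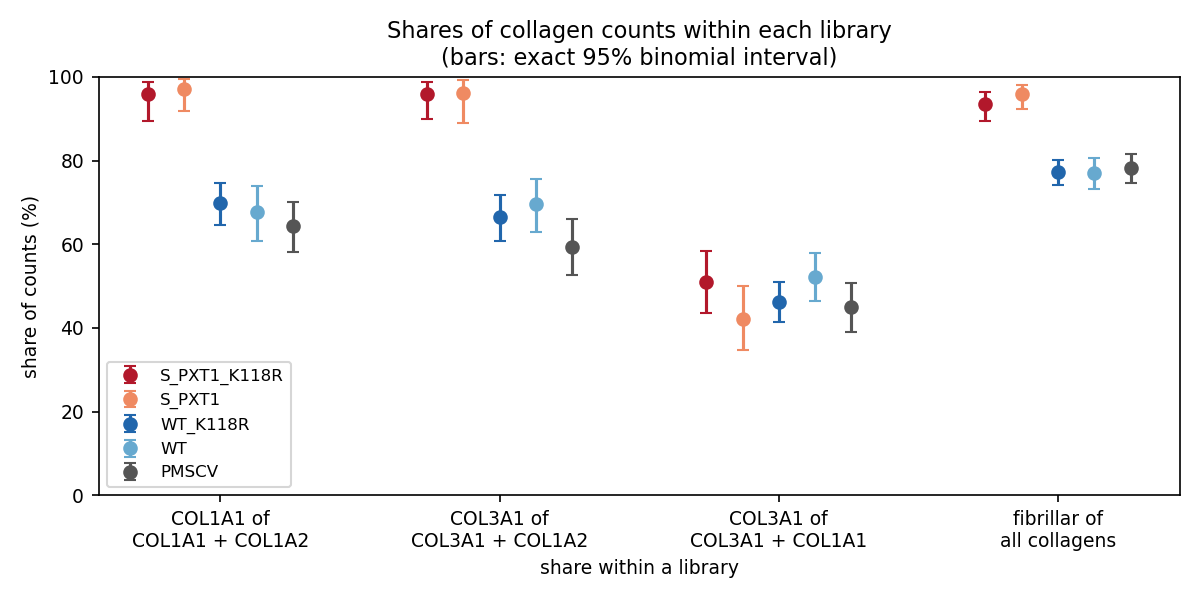
Shares of counts within each library in percent, points for the share and bars for the exact 95% binomial interval, with the 5 libraries in colour. The shares of COL1A1 and COL3A1 against COL1A2 and of fibrillar chains among all collagens are higher in S_PXT1_K118R and S_PXT1 than in WT_K118R, WT and PMSCV, and the share of COL3A1 against COL1A1 lies between 42.2% and 52.2% throughout.

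The minor fibrillar chains did not divide the libraries as COL1A2 did. COL5A1, a chain of the type V collagen that helps to start fibrils, had 9 counts in S_PXT1_K118R, 11 in S_PXT1, 15 in WT_K118R, 13 in WT and 22 in PMSCV. COL5A2, its partner chain, had 5, 12, 34, 19 and 15 counts, and COL11A1, a type XI chain of cartilage and embryonic tissue, had 12, 8, 22, 9 and 14. All 3 genes had counts in every library. Their joint share of collagen counts was 11.2% (7.45 to 15.99) in S_PXT1_K118R and 14.3% (9.92 to 19.7) in S_PXT1, against 8.88% (7.00 to 11.1) in WT_K118R, 7.78% (5.64 to 10.4) in WT and 9.16% (6.89 to 11.9) in PMSCV. COL27A1 had 6 counts in WT_K118R and at most 1 elsewhere, COL5A3 had 1 in WT_K118R and 1 in PMSCV, and COL2A1, COL11A2 and COL24A1 were at 0 throughout.

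As a class the fibrillar chains held 93.5% (89.6 to 96.3) of collagen counts in S_PXT1_K118R and 95.9% (92.3 to 98.1) in S_PXT1. They held 77.2% (74.2 to 80.1) in WT_K118R, 77.0% (73.2 to 80.6) in WT and 78.3% (74.6 to 81.6) in PMSCV. COL1A1 and COL3A1 alone supplied 186 of 232 and 173 of 217 counts in S_PXT1_K118R and S_PXT1, against 438 of 800, 297 of 527 and 294 of 557 in WT_K118R, WT and PMSCV.

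Basement membrane collagens were few in every library. The 6 type IV chains summed to 0 counts in S_PXT1_K118R, 2 in S_PXT1, 32 in WT_K118R, 16 in WT and 17 in PMSCV. The 0 of 232 collagen counts in S_PXT1_K118R allows a share of up to 1.58% by the exact interval. COL4A2, which with COL4A1 forms the ubiquitous type IV trimer, had 0 counts in S_PXT1_K118R and S_PXT1, against 13 in WT_K118R, 7 in WT and 13 in PMSCV. COL4A1 had 0, 2, 9, 6 and 1 counts in the 5 libraries in that order. COL4A1 and COL4A2 lie head to head and overlap at their ends on opposite strands, and since no source used here states whether the counting used strand, reads there cannot be assigned with certainty. COL4A5 reached 8 counts in WT_K118R, COL4A6 had at most 2 and COL4A4 at most 1 count, and COL4A3 had none.

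Type VI collagen was the most abundant of the other classes, with 14 counts in S_PXT1_K118R, 4 in S_PXT1, 87 in WT_K118R, 52 in WT and 63 in PMSCV. COL6A3, the long α3 chain, had 0 counts in S_PXT1_K118R and S_PXT1, against 42 in WT_K118R, 10 in WT and 29 in PMSCV. COL6A1 had 6, 1, 22, 20 and 19 counts and COL6A2 had 8, 3, 23, 22 and 15. COL6A1 and COL6A2 were thus still counted in the S_PXT1_K118R and S_PXT1 libraries while COL6A3 was not, and WT was low for COL6A3 but not for its partners. COL6A3 supplied 48.3% (37.4 to 59.2) of the counts of these 3 chains in WT_K118R, 19.2% (9.63 to 32.5) in WT and 46.0% (33.4 to 59.1) in PMSCV.

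The remaining classes were at or near 0 in S_PXT1_K118R and S_PXT1. COL12A1, a FACIT chain of dense connective tissue, had 0 and 3 counts there, against 12 in WT_K118R, 11 in WT and 15 in PMSCV. COL7A1, the anchoring fibril collagen beneath stratified epithelia, had 0 counts in both, against 7, 11 and 17. COL17A1, the transmembrane collagen of hemidesmosomes in basal keratinocytes, had 22 counts in WT_K118R and 9 in WT and was at 0 in S_PXT1_K118R, S_PXT1 and PMSCV. It was the only one of the 13 better covered collagens at 0 in PMSCV. Of the chains with fewer than 20 counts in all, COL16A1 and COL8A1 had at most 9 in any library, COL14A1 had 6 counts in WT alone, COL18A1 had 5 in WT, and COL10A1, COL9A3, COL13A1, COL15A1 and COL26A1 had at most 3. No count was found for COL6A5, COL6A6, COL8A2, COL9A1, COL9A2, COL19A1, COL20A1, COL21A1, COL22A1, COL23A1, COL25A1 or COL28A1.

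Absence from S_PXT1_K118R and S_PXT1 was common in the table as a whole. Of the 28 collagens with any count, 16 (57.1%) were at 0 in both of these libraries, against 42.8% of the 16237 genes with any count. Among genes with at least 20 counts over the 5 libraries, 4 of 13 collagens were at 0 in both, namely COL4A2, COL6A3, COL7A1 and COL17A1, against 5.77% of 4104 genes.

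S_PXT1 was set against PMSCV first. The collagen sum was lower with S_PXT1, at a fold of 0.427 (0.363 to 0.501), and the classes differed in how far. The fibrillar chains other than COL1A2 had a fold of 0.65 (0.544 to 0.774), 205 counts against 346, while COL1A2 had a fold of 0.0365 (0.0074 to 0.11), 27.4-fold lower (9.07 to 135). Type IV had 2 counts against 17, a fold of 0.129 (0.0145 to 0.543), and the other classes 7 against 104, a fold of 0.0738 (0.029 to 0.158). COL6A3 was at least 8.82-fold lower and COL7A1 at least 5.17-fold lower, taking a count of 0 as up to 3 counts in that library. COL1A1 had a fold of 0.677 (0.522 to 0.874), COL3A1 of 0.606 (0.449 to 0.813) and COL5A2 of 0.877 (0.375 to 2.01). Epithelial markers (1 count against 178), smooth muscle markers (1 against 78) and fibroblast markers (14 against 65) were lower beside them, and their part in these folds was not tested.

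Over the 13352 genes whose mean reached 1 CPM, a gene was called at a 2-fold difference in CPM after adding 1 CPM. With S_PXT1 against PMSCV, 13 of the 25 collagens that entered were lower (52.0%), against 43.8% of all genes. Another 1 was higher, COL27A1 with 1 count against 0, against 8.64% of all genes. Among the lower, COL5A3, COL16A1, COL18A1 and COL4A6 had 0 counts against 1, and COL4A5 had 0 against 2. The share lower was not far from that of the table. The collagen median was -2.10 on the log2 scale beside -0.56 for all genes. It was -0.19 beside 0 when genes at 0 counts were set to their bound of 3 counts. Under that setting, a gene at 0 in 1 library and at most 3 counts in the other was given a log2 ratio of 0. The median of 0 for all genes came from this rule. Among the 1547 genes averaging 20 or more counts per library, where zeros weigh less, 7.82% were lower by 2-fold. COL1A2 was among them, at rank 29 from the lowest with a log2 ratio of -4.66, and COL1A1 and COL3A1, at -0.56 and -0.72, were not.

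S_PXT1 was next set against WT, a comparison that shares the S_PXT1 library with the one before. COL1A1 had 100 counts with S_PXT1 and 142 with WT, a fold of 0.939 (0.719 to 1.22), and COL3A1 a fold of 0.628 (0.469 to 0.834). COL1A2 was 17.0-fold lower (5.58 to 84.5) with S_PXT1. COL5A1, COL5A2 and COL11A1 had folds of 1.13 (0.458 to 2.73), 0.842 (0.373 to 1.83) and 1.18 (0.398 to 3.46), intervals that include 1. The type IV fold was 0.167 (0.0186 to 0.709) and that of the other classes 0.0889 (0.0349 to 0.19). In all, 16 of 25 collagens were lower (64.0%), against 42.5% of all genes. Another 1 was higher, COL27A1 with 1 count against 0, against 9.02%. Among the lower, COL4A5 and COL4A6 had 0 counts against 1, and COL8A1 and COL9A3 had 0 against 2. The median log2 ratio was -1.97 beside -0.48 for all genes, and -0.32 beside 0 with genes at 0 counts set to their bound. That 0 for all genes again came from the rule for counts of at most 3. Of the 1547 better covered genes 7.05% were lower, COL1A2 among them at rank 37. Epithelial markers had 1 count against 189, smooth muscle markers 1 against 319 and fibroblast markers 14 against 104, and their part in these folds was not tested.

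S_PXT1_K118R and WT_K118R share no library with the S_PXT1 and WT pair. The collagen sum had a fold of 0.385 (0.331 to 0.446), with 232 counts with S_PXT1_K118R against 800 with WT_K118R, and COL1A2 was 19.2-fold lower (7.28 to 71.9). COL1A1 had a fold of 0.511 (0.397 to 0.654) and COL3A1 of 0.624 (0.484 to 0.8). COL5A2 had 5 counts against 34, a fold of 0.195 (0.0596 to 0.501), so that in this pair the interval of a further fibrillar chain lay below 1. COL6A3 was at least 10.6-fold lower, COL17A1 at least 5.53-fold and the type IV sum at least 8.04-fold lower. COL6A1 and COL6A2 had folds of 0.362 (0.12 to 0.92) and 0.461 (0.178 to 1.07). Of the 25 collagens 18 were lower (72.0%), against 44.0% of all genes, and 0 were higher, against 8.94%. Among the lower, COL5A3 and COL18A1 had 0 counts against 1, COL4A6 had 0 against 2 and COL10A1 had 0 against 3. The share lower was above that of the table. With genes at 0 counts set to their bound the collagen median was -0.97. The 0 for all genes under that setting came from the rule for counts of at most 3 and is no measured reference. Of the 1547 better covered genes 7.82% were lower, COL1A2 among them at rank 36. Epithelial markers had 0 counts against 350 and fibroblast markers 6 against 71, while SPI1 had 128 against 1, and their part in the collagen folds was not tested.

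**Figure D4:**
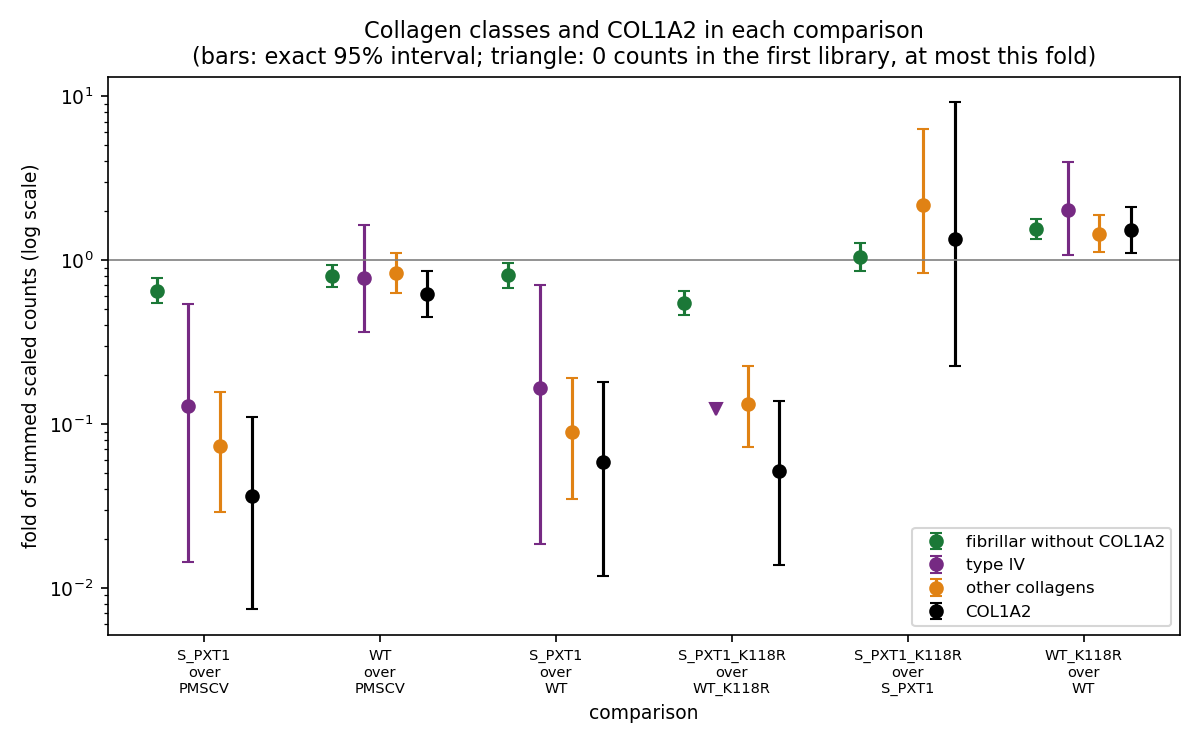
Fold (log axis) of the summed scaled counts of fibrillar chains without COL1A2, of type IV and of the other collagens, and of COL1A2 alone, in the 6 comparisons, with exact 95% intervals. The triangle marks a sum of 0 counts in S_PXT1_K118R as an upper bound of the fold, with 0 taken as 3 counts and counting error left out. The type IV fold of S_PXT1_K118R over S_PXT1 (0 and 2 counts) is not drawn.

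WT differed less from PMSCV in its collagens. The collagen sum had a fold of 0.778 (0.689 to 0.878), COL1A1 of 0.721 (0.571 to 0.909), COL3A1 of 0.966 (0.761 to 1.23) and COL1A2 of 0.621 (0.447 to 0.861). COL6A3 was 3.53-fold lower (1.67 to 8.11) with WT, at 10 counts against 29. COL17A1 had 9 counts against 0, at least 2.47-fold higher. Of 25 collagens 6 were higher (24.0%), against 20.3% of all genes, and 6 lower (24.0%), against 23.2%. The higher included COL9A3 with 2 counts against 0, COL18A1 with 5 against 1, and COL4A1 and COL16A1 with 6 against 1 each. The lower included COL5A3 with 0 counts against 1 and COL4A5 with 1 against 2. The median log2 ratio was -0.20 beside -0.03 for all genes. Smooth muscle markers had 319 counts with WT against 78 with PMSCV, a fold of 3.36 (2.62 to 4.37). Fibroblast markers had 104 against 65, a difference that rested largely on DCN with 61 against 27, and epithelial markers 189 against 178. Of the 7 fibroblast markers 1 was higher (14.3%, against 20.3% of all genes) and 1 lower (14.3%, against 23.2%). The part of these 3 marker lists in the collagen folds was not tested.

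The K118R substitution was examined within each background. In the S_PXT1 background the collagen sum had a fold of 1.08 (0.892 to 1.30), COL1A1 of 0.918 (0.683 to 1.23), COL3A1 of 1.31 (0.957 to 1.81) and COL1A2 of 1.34 (4 counts with S_PXT1_K118R against 3 with S_PXT1; interval 0.228 to 9.18). Type VI was higher with S_PXT1_K118R, at 14 counts against 4, a fold of 3.53 (1.11 to 14.7). Of 25 collagens 3 were higher (12.0%), namely COL6A1, COL6A2 and COL26A1, against 15.2% of all genes. Another 3 were lower (12.0%), namely COL5A2, COL12A1 and COL4A1, against 17.6%, and the median log2 ratio was 0 for the collagens and for all genes.

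In the WT background the collagen sum was higher with WT_K118R, at a fold of 1.54 (1.38 to 1.72). COL1A1 had a fold of 1.68 (1.36 to 2.09), COL1A2 of 1.52 (1.11 to 2.10) and COL3A1 of 1.32 (1.07 to 1.64). COL6A3 was 4.26-fold higher (2.10 to 9.51), and COL11A1 and COL17A1, each with 22 counts against 9, 2.48-fold higher (1.10 to 6.11). Of 25 collagens 9 were higher (36.0%), against 19.2% of all genes, and 3 were lower (12.0%), namely COL14A1, COL18A1 and COL9A3, against 20.9%. The higher included COL5A3 and COL26A1, each with 1 count against 0, and COL10A1, with 3 against 0. The median log2 ratio was 0.75 beside 0.01 for all genes. Beside this, epithelial markers had 350 counts with WT_K118R against 189 with WT, fibroblast markers 71 against 104, a fold of 0.692 (0.504 to 0.945), smooth muscle markers 12 against 319 and SPI1 1 against 173. The lower fibroblast sum rested on DCN, with 21 counts against 61. Of the 7 fibroblast markers 1 was higher (14.3%, against 19.2% of all genes) and 1 lower (14.3%, against 20.9%). Their median log2 ratio was 0.02. The higher epithelial sum rested largely on KRT14, with 135 counts against 28, and KRT5, with 161 against 106. CDH1, KRT8, KRT18 and KRT19 had 12, 10, 9 and 15 counts with WT_K118R against 15, 10, 13 and 14 with WT. Of the 7 epithelial markers 2 were higher (28.6%, against 19.2% of all genes) and 0 lower (against 20.9%), with a median log2 ratio of 0.12. The part of the marked cell types in the collagen folds was not tested. The difference between the K118R folds in the S_PXT1 and WT backgrounds was not tested.

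Enzymes and chaperones that modify and fold procollagen in the cell had summed levels that differed less between the libraries than those of the collagens, a sum that rests largely on 1 gene. The 18 genes of that list summed to 1211, 1181, 1286, 1307 and 1213 CPM in S_PXT1_K118R, S_PXT1, WT_K118R, WT and PMSCV, and the fold was 0.974 (0.832 to 1.14) for S_PXT1 over PMSCV and 0.941 (0.811 to 1.09) for S_PXT1_K118R over WT_K118R. PPIB, a prolyl isomerase of the endoplasmic reticulum, supplied most of it, with 186, 222, 269, 318 and 210 counts. Without PPIB, a sum added after seeing the data, the other 17 genes had 81 counts with S_PXT1 against 131 with PMSCV, a fold of 0.678 (0.507 to 0.901). With S_PXT1_K118R they had 122 counts against 165 with WT_K118R, a fold of 0.981 (0.77 to 1.25). Between S_PXT1_K118R and S_PXT1 they differed more than the collagens did, at 122 counts against 81. That is a fold of 1.52 (1.14 to 2.04), where the collagen sum had 1.08 (0.892 to 1.30). In that comparison 7 of the 17 members entering, PPIB included, were higher (41.2%, against 15.2% of all genes) and 0 lower (against 17.6%). SERPINH1, the collagen chaperone HSP47, had 26, 25, 34, 19 and 19 counts, so no library was near 0. P4HB, a subunit of prolyl 4-hydroxylase, had 38, 13, 44, 39 and 34 counts and was low in S_PXT1 alone, at a fold of 0.419 (0.203 to 0.815) over PMSCV. Gene by gene, 2 of the 17 members entering were higher and 9 lower with S_PXT1 than with PMSCV, and 4 were higher and 4 lower with S_PXT1_K118R than with WT_K118R. As shares, 11.8% were higher and 52.9% lower in the first, against 8.64% and 43.8% of all genes, and 23.5% were higher and 23.5% lower in the second, against 8.94% and 44.0% of all genes. Those shares of all genes hold for the lists that follow as well.

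The 13 genes of procollagen processing and cross-linking summed to 26, 20, 28, 33 and 26 counts in the same order, led by PCOLCE, the procollagen C-proteinase enhancer, with 13, 5, 6, 9 and 8, BMP1, the proteinase itself, with 3, 8, 9, 7 and 5, and LOXL2, a lysyl oxidase, with 6, 0, 8, 3 and 6. Their summed fold was 0.843 (0.446 to 1.57) for S_PXT1 over PMSCV and 1.23 (0.694 to 2.18) for S_PXT1_K118R over WT_K118R, both intervals including 1. Of the 7 entering, 1 was higher and 2 lower in the first of these, and 2 were higher and 2 lower in the second. At 28.6% the share lower was under that of all genes, 43.8% and 44.0%, in both. Collagen receptors summed to 21, 29, 63, 61 and 65 counts, a fold of 0.489 (0.304 to 0.769) for S_PXT1 over PMSCV and of 0.442 (0.256 to 0.735) for S_PXT1_K118R over WT_K118R. ITGB1, the shared β1 integrin chain, had 9, 12, 29, 29 and 35 counts, DDR1, a receptor tyrosine kinase of epithelia, 2, 0, 10, 10 and 17, and DDR2, its mesenchymal relative, 2, 11, 13, 15 and 9. With S_PXT1 against PMSCV 1 of 5 receptors entering was higher and 3 were lower, and with S_PXT1_K118R against WT_K118R 0 were higher and 4 lower, where 43.8% and 44.0% of all genes were lower.

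Interstitial matrix partners were lower as a sum, at a fold of 0.362 (0.283 to 0.459) for S_PXT1 over PMSCV and 0.224 (0.174 to 0.284) for S_PXT1_K118R over WT_K118R, with 8 of 12 lower in each (66.7%, against 43.8% and 44.0% of all genes), 0 higher in the first and 1 in the second (against 8.64% and 8.94%). They too were uneven. FN1, fibronectin, had 3, 10, 204, 60 and 74 counts, a fold of 0.148 (0.0682 to 0.288) for S_PXT1 over PMSCV. SPARC, a collagen-binding matricellular protein, had 47, 42, 101, 60 and 64 counts, a fold of 0.719 (0.476 to 1.08) in the same comparison, and POSTN, periostin, had 7, 22, 58, 27 and 42. Laminins and other basement membrane partners of type IV summed to 18, 25, 224, 105 and 108 counts, a fold of 0.254 (0.157 to 0.395) for S_PXT1 over PMSCV and of 0.107 (0.062 to 0.172) for S_PXT1_K118R over WT_K118R. Of these 13 genes 10 were lower in the first (76.9%, against 43.8% of all genes) and 12 in the second (92.3%, against 44.0%), and 0 were higher in either (against 8.64% and 8.94%). LAMA3, a laminin α chain of epithelial basement membrane, was at 0 in S_PXT1_K118R and S_PXT1, against 44, 8 and 14 counts in WT_K118R, WT and PMSCV. LAMC1, the widely expressed laminin γ1 chain, had 4, 11, 18, 25 and 20 counts in the 5 libraries.

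Markers of collagen-producing and other tissue cells were also low or at 0 in S_PXT1_K118R and S_PXT1. In a bulk library fewer cells of a type and less RNA per cell cannot be told apart. The 7 epithelial markers summed to 0 counts in S_PXT1_K118R and 1 in S_PXT1, against 350 in WT_K118R, 189 in WT and 178 in PMSCV, and of them KRT5, KRT14, CDH1, KRT18, KRT19 and EPCAM were at 0 in S_PXT1_K118R and S_PXT1. The 7 fibroblast markers summed to 6, 14, 71, 104 and 65 counts, with DCN at 5, 5, 21, 61 and 27 and LUM at 0, 6, 26, 27 and 26, and PDGFRB, FAP and PDPN at 0 in S_PXT1_K118R and S_PXT1. PDGFRA had 1, 2, 5, 3 and 0 counts, so it was at 0 in PMSCV and not in S_PXT1, and THY1 had 0, 1, 4, 4 and 3. The 6 smooth muscle markers summed to 0, 1, 12, 319 and 78 counts, led by MYH11 with 215 in WT. The 6 endothelial markers summed to 0, 0, 3, 20 and 13, with CDH5, KDR and EMCN at 0 in every library. The part of such cells in the collagen counts was not tested.

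**Figure D5:**
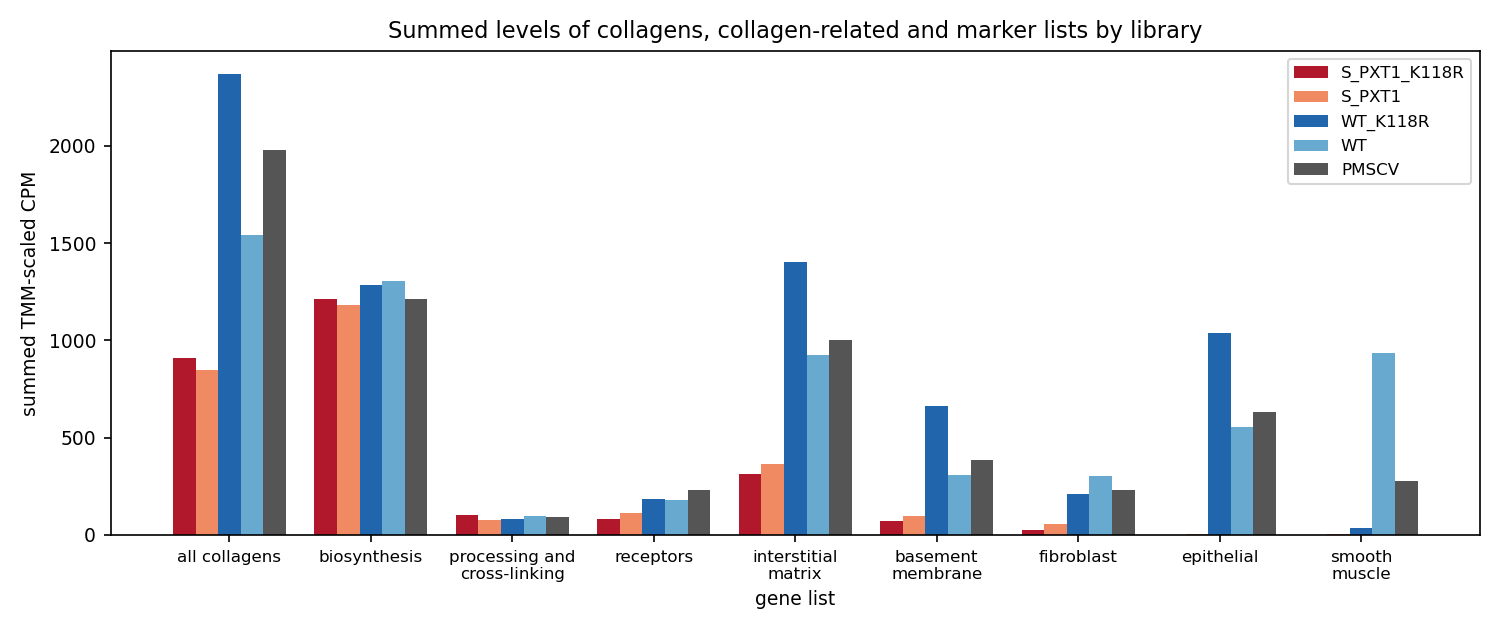
Summed TMM-scaled CPM (bars from 0) of the collagens, of the lists of collagen biosynthesis, processing, receptors and matrix partners and of 3 marker lists, in the 5 libraries (colours). The biosynthesis list lies between 1181 and 1307 CPM in every library, whereas epithelial markers are at 0 and 3.90 CPM in S_PXT1_K118R and S_PXT1.

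Genes whose counts were spread over the 5 libraries most like those of COL1A1, COL3A1 and COL1A2 were sought among 1544 other genes averaging 20 or more counts per library. Likeness was measured as the total variation distance between the shares of scaled CPM per library, which is 0 for equal patterns and 1 for no overlap. For COL1A1 the nearest were PDIA4 (0.023), UBB (0.0269), MYCBP2 (0.0271), SPARC (0.0291) and PRPF8 (0.0369), and COL3A1 ranked 18 at 0.0623. For COL3A1 they were TTC3 (0.0342), SARS1 (0.0388), MINK1 (0.0398), SPARC (0.041) and HSPA5 (0.0417). For COL1A2 they were NEAT1 (0.0306), AP1G2 (0.0508), MALAT1 (0.0783), SENP6 (0.0809) and KLK3 (0.093), whereas COL1A1 and COL3A1 lay at 0.274 and 0.27. NEAT1, a nuclear long non-coding RNA, had 0 and 2 counts in S_PXT1_K118R and S_PXT1, against 128, 86 and 106 in WT_K118R, WT and PMSCV, and AP1G2, SENP6 and KLK3 were at 0 in S_PXT1_K118R and S_PXT1. KLK3, the human gene of prostate-specific antigen, which has no direct counterpart in the mouse, had 71, 62 and 51 counts in WT_K118R, WT and PMSCV. SPARC was thus among the nearest genes for COL1A1 and for COL3A1, and none of the 5 nearest genes of COL1A2 was among those of the others.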

How the data were processed

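Total RNA was sequenced from Ba/F3 cells, 1 library per label and 5 in all. Per the file headers, the deposited values are raw counts of reads and FPKM, side by side for each library. Tools named without a role in the submitters' processing notes are cutadapt 1.9, FastQC and HISAT2 2.2.1. How reads were counted, with which annotation and build, and whether by strand, the sources used here do not state. There were 0 value columns without a library.

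Counts were scaled by TMM in edgeR 4.0.16 under R 4.3.3. Log2 ratios were taken on CPM plus 1 CPM, for genes with a mean of at least 1 CPM, and called at 2-fold. Folds of counts carry exact conditional 95% intervals, levels Poisson and shares Clopper-Pearson intervals (scipy 1.17.1). A fold against 0 counts used 3 counts in that library and left out counting error in the other, so it is not a 95% limit. Medians with zeros at their bound took a log2 ratio of 0 where 1 count was 0 and the other at most 3. The scripts were tested on simulated data. Members named are those with at least 20 counts over the 5 libraries, with COL1A1, COL3A1 and COL1A2 always given, and the 3 best counted genes of each list plus defining markers at 0. Of these, 1 gene is not reported here. Some other genes are named beside these, chosen after their values were seen. The members, classes, lists and comparisons were chosen with earlier results of these data known. Alternatives were DESeq2 1.42.0 size factors, total counts, FPKM, other filters and pseudocounts, summed overlapping models and the sum without COL1A1. TMM on the compared pair alone, thinning and a sum without PPIB were chosen after seeing the data.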

Additional observations from a re-analysis of the deposited data

How the results depend on the processing

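No paired analysis was possible because groups of 1 library share fewer than 2 replicate numbers, and no replicate could be left out. An additive fit of K118R and background over the 4 libraries S_PXT1_K118R, S_PXT1, WT_K118R and WT, which leaves 1 residual degree of freedom, was not run. Across all alternatives run, 0 of 36 values of the summed collagen folds and 0 of 54 values of the COL1A1, COL3A1 and COL1A2 folds had the opposite direction. Part of these values could not differ. Summing overlapping models left every fold as it was, and for a single gene FPKM nearly repeats scaling by total counts. For COL1A2, S_PXT1 over PMSCV was 0.0343 with each. Without COL1A1 the summed fold moved to 0.325 for S_PXT1 over PMSCV and 0.405 for S_PXT1 over WT, outside the counting intervals of 0.427 and 0.549; the other summed folds stayed within theirs. Scaling by total counts shifts every gene by -0.12 on the log2 scale for WT over PMSCV. Summing gene models that overlap on 1 strand changed nothing, since no such model had counts, and the COL1A1 shares stayed within their intervals with FPKM. Counts of collagens past 2-fold rest on few reads. The number higher with S_PXT1 than PMSCV was 1, against 2 with DESeq2 size factors and 0 with a pseudocount of 5 CPM, which also gave 0 higher, against 1, for S_PXT1 over WT. For WT over PMSCV the 6 higher became 3 with a filter at a mean of 5 CPM and the 6 lower became 3 with the larger pseudocount. For WT_K118R over WT the 3 lower became 5 with no filter and 0 with the stricter one. The 9 higher became 10 with no filter, 6 with the stricter one and 7 with the larger pseudocount. With 217 to 800 collagen counts per library, 15 collagens had under 20 counts over the 5 libraries, and a library at 0 for a gene allows up to 8.77 to 11.8 CPM.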

Other observations

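Genes that break down collagen, and their inhibitors, were mostly low in S_PXT1_K118R and S_PXT1. The 10 genes of the list summed to 24, 20, 110, 87 and 82 counts in S_PXT1_K118R, S_PXT1, WT_K118R, WT and PMSCV, a fold of 0.267 (0.155 to 0.44) for S_PXT1 over PMSCV and of 0.289 (0.178 to 0.453) for S_PXT1_K118R over WT_K118R. The list was not even. MMP14, a membrane-bound collagenase, had 18, 13, 30, 16 and 23 counts, a fold of 0.62 (0.288 to 1.28) for S_PXT1 over PMSCV. MMP2, a gelatinase that MMP14 activates, had 2 counts in S_PXT1_K118R and 2 in S_PXT1, against 19, 18 and 19 in the other 3 libraries. TIMP2, an inhibitor of both, had 3 and 2 counts, against 11 in WT_K118R, 25 in WT and 23 in PMSCV. Gene by gene, 5 of the 8 entering were lower and 0 higher with S_PXT1 than with PMSCV (62.5% lower, against 43.8% of all genes), and 7 were lower and 0 higher with S_PXT1_K118R than with WT_K118R (87.5%, against 44.0%). MMP8 and MMP13 had no count in any library.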
